A study of Rattus norvegicus with 20 samples.

Results

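Homeobox and forkhead genes encode transcription factors that lay out the head and its epithelia in the embryo and hold cell types apart in the adult. Here 95 such genes were followed in the rat nose, of 14217 genes that could be named on the array. They were chosen by symbol alone: Fox and Hox genes (30 and 24), Irx, Lhx, Nkx and Pax genes (5, 5, 6 and 6), Six3, Six4, Six5 and Six6, Dlx, Meis and Pbx genes (3 each), and Emx, Msx and Otx genes (2 each). Hoxa11-as, an antisense RNA, met the rule as well. Where several probe sets measured a gene (21 of the 95), the brightest over all arrays stood for it.

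The study set olfactory against respiratory nasal epithelium of untreated adult Sprague-Dawley rats of both sexes, with 1 array per sample. The males gave 6 olfactory and 6 respiratory arrays, and the females 2 olfactory and 6 respiratory arrays. Males were 11, 13 or 14 weeks old in both tissues, female olfactory samples came from rats of 13 and 14 weeks, and female respiratory samples from rats of 11, 13 or 14 weeks. All tissue was kept in RNA Later and taken by hand from septum and turbinates, so other cell types could be taken along with the epithelium. Numbers in the labels name 13 animals, of which 7 (5 males and 2 females) gave both tissues.

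A homeodomain is a small helical fold that reads short AT-rich DNA sites, and the forkhead domain is a winged helix that can bind closed chromatin. LIM-homeodomain (Lhx) proteins work in complexes with Ldb cofactors, Meis and Pbx proteins pair with each other and with Hox proteins, and Iroquois (Irx) genes lie in clusters and pattern fields of tissue. In the mouse, Lhx2 and Emx2 are needed for normal odorant receptor expression, Pax6 and Otx2 for the nasal placode and the front of the head, Foxa1 for airway epithelium and Foxj1 for motile cilia.

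The arrays bore out their tissue labels. Omp, which marks mature olfactory neurons, had signals of 21368 to 26936 on male olfactory and 815 to 5359 on male respiratory arrays. The summed signal of 10 mature neuron markers was 73398 to 82416 on male olfactory, 3361 to 13112 on male respiratory, 83844 to 87020 on female olfactory and 4484 to 27205 on female respiratory arrays. Omp was above background on every respiratory array, and the marker sum was highest on male respiratory 1 and female respiratory 7 within their groups. Male respiratory 7 and female respiratory 8 lay apart from the other respiratory arrays, at -97.5 and -113 on the second principal component (15.8% of the variance). The RNA integrity number, an electrophoretic score of RNA quality, was 8.2 to 8.8 in male olfactory (n = 5) and 9.1 to 9.3 in male respiratory samples (n = 4), and 8.3 in both female olfactory samples against 8.7 to 9.3 in female respiratory samples (n = 6). It did not overlap between the tissues in either sex, so within a sex it cannot be told apart from the tissue.

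The promoters of members that differed between the tissues are shown for Lhx2 and Msx2, both higher in olfactory epithelium, and for Irx3 and Irx2, both lower. Each line gives the 250 bases before the gene's start on the coding strand, from RefSeq's rat build GRCr8, and capitals mark CpG dinucleotides.
Lhx2 chr3:42535494-42535743 (+ strand): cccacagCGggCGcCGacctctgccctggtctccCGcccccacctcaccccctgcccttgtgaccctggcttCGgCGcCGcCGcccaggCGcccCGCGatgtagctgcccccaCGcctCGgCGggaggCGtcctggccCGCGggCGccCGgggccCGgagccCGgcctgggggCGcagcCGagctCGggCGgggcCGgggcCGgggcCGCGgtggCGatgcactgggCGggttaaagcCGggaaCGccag
Msx2 chr17:11102034-11102283 (+ strand): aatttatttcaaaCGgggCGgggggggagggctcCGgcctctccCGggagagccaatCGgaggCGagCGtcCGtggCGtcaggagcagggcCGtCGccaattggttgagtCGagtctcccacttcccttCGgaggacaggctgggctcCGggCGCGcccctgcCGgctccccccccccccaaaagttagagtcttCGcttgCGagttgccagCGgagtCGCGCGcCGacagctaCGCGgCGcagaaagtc
Irx3 chr19:31384868-31385117 (+ strand): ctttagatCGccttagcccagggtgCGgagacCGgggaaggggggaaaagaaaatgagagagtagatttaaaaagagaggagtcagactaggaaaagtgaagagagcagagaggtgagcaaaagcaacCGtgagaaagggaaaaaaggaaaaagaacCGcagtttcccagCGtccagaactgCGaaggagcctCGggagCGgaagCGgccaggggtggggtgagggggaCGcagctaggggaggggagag
Irx2 chr1:32494931-32495180 (- strand): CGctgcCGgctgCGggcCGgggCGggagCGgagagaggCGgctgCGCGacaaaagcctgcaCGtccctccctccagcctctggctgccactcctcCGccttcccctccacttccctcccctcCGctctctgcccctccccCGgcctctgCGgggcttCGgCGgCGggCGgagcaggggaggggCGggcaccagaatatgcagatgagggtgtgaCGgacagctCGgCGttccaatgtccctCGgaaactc
The Lhx2 window holds 33 CpG and is 80.8% GC, the Msx2 window 27 CpG and 67.6% GC, the Irx3 window 11 CpG and 55.2% GC, and the Irx2 window 23 CpG and 71.6% GC. In all, 62 of the 95 members matched a promoter entry. Their windows held a median of 17 CpG, against 15 over the 11700 named array genes with an entry and 6 over all 27457 entries. The median was 19.5 CpG for the 4 matched members higher in olfactory epithelium, 19 for the 13 matched members lower there and 17 for the 45 others, so these groups lay close together.

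Short binding motifs were searched on both strands of these windows by exact letters. TAATTA, which homeodomains read, stood in 1 of 62 members and 4.94% of all entries, and TGTTTAC, a forkhead core, in 1 of 62 and 3.25%. TGACAG, a Meis core, stood in 10 of 62 members (16.1%) and 15.6% of all entries, Pax6 and Lhx1 among them. TGATNNAT, read by Pbx and Hox pairs, stood in 3 of 62 members and 7.75% of all entries, and the palindromic Ebf site in 0 of 62 and 0.736%. All entries had a median GC of 52.0%, against 62.2% in the members' windows, so the sets compared are not alike in base content. None of the 5 motifs occurs in the 4 windows shown, which says only that these letters are not in them.

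In males, 25 of the 95 members differed between olfactory and respiratory epithelium (limma, Benjamini-Hochberg adjusted p under 0.05). That is 26.3% of the members, beside 31.8% of all named genes, so their share of calls was not above the background. Higher in olfactory epithelium were 7 members, beside 14.0% of all genes: Lhx2, Emx2, Msx2, Pbx3, Pax6, Otx2 and Emx1. Lower there were 18 members, beside 17.8% of all genes: 8 Fox genes, 3 Irx genes, Meis1 and Meis2, Pax1 and Pax8, Six4, Lhx1 and Msx1. Changes reached 2-fold in 22 of the 25. The median log2 difference, olfactory minus respiratory, was -0.16 over the members and -0.05 over all named genes. In bulk tissue, fewer cells of a type and less RNA per cell cannot be told apart.

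**Figure D1:**
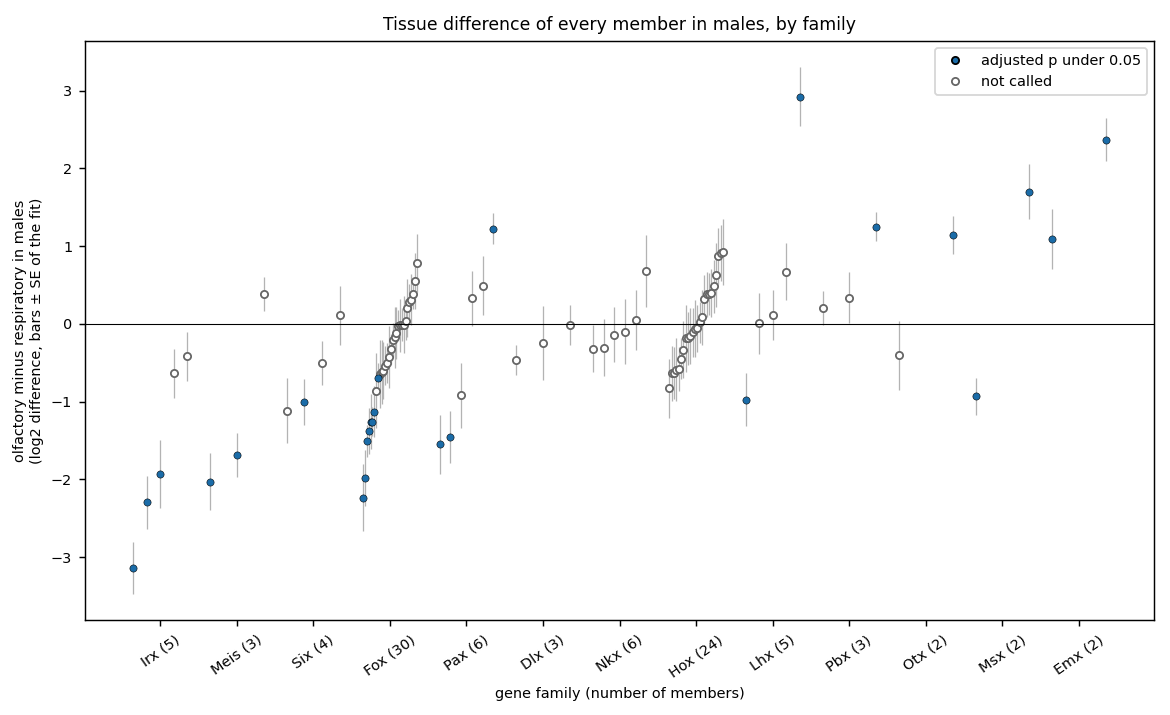
Log2 difference of each of the 95 members, olfactory minus respiratory in males (vertical axis, bars ± SE of the limma fit), grouped by gene family along the horizontal axis. Filled dots are the 25 members with an adjusted p under 0.05; Irx3 (-3.14) is the lowest dot and Lhx2 (2.92) the highest, Meis3, Irx4 and Irx5 lie apart from the called genes of their families, and the 24 Hox genes hold no filled dot.

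Over the arrays that have an RNA integrity number, a fit that adjusts for it kept 9 of the 25 male calls: Lhx2, Emx2, Pbx3, Pax6, Irx3, Foxa1, Foxq1, Foxn2 and Pax8. Not called in it were 16, namely Irx1, Irx2, Meis1, Meis2, Foxe1, Foxp2, Foxa3, Foxc1, Foxn3, Pax1, Six4, Lhx1, Msx1, Msx2, Otx2 and Emx1, with adjusted p-values of 0.0543 (Foxa3) to 0.796 (Foxp2). All 25 kept their sign. Against the same arrays without the adjustment, the difference was smaller for 12 of these 16 and larger for 4 (median ratio 0.740), and the SE was larger for all 16 (median ratio 1.56). Irx1, for instance, differed by -0.76 with the adjustment and -2.16 without it, and Six4 by -0.45 and -1.14. On the same arrays without the adjustment 24 of 25 calls were kept. In females 7 of 17 calls were kept with it. Within each sex the RNA integrity number did not overlap between the tissues, while male olfactory samples reached 8.8 and female respiratory samples began at 8.7. This fit, with a slope shared by both sexes, therefore rests on little overlap and cannot cleanly part RNA quality from tissue. The part of RNA quality in these differences was not tested.

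Of the 95 members, Lhx2, a factor of olfactory neurons, rose most. Its signal was 3182, 5832 and 7774 on male olfactory arrays (lowest, median and highest), against 418, 573 and 2084 on male respiratory arrays. Every male olfactory array stood above every male respiratory array, and male respiratory 1 was far above the rest of its tissue. The log2 difference was 2.92 (SE 0.38, 7.58-fold, limma adjusted p = 3.42e-06). Lhx2 was higher in olfactory epithelium in each of the 5 male pairs of tissues from the same rat, by 1.39 to 4.17 on the log2 scale.

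Emx2, a homeobox gene of the forebrain and of olfactory neurons, had signals of 557, 820 and 969 on male olfactory arrays and 96.2, 118 and 302 on male respiratory arrays. The tissues did not overlap, and male respiratory 1 was again the highest of its group. The log2 difference was 2.37 (SE 0.28, 5.17-fold, limma adjusted p = 1.06e-06). Its relative Emx1, which patterns the cortex, had signals of 66.1, 107 and 122 against 26.4 as the median of male respiratory arrays, which ran from 16.7 to 124. There the tissues overlapped, through male respiratory 3, and only 2 of 6 male respiratory arrays were above background. Emx1 was higher by 1.09 (SE 0.39, limma adjusted p = 0.0425), a call that was lost with the animal as a fixed block (difference 0.90, adjusted p = 0.258) and on leaving out any of 8 single arrays (adjusted p up to 0.103, without male respiratory 8).

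Pax6, a master gene of eye and nasal placode that is also kept in cells of the adult olfactory epithelium, gave 1153, 1881 and 2208 on male olfactory arrays against 398, 793 and 966 on male respiratory arrays. No respiratory array reached the lowest olfactory one, and male respiratory 7 was the lowest of all. Pax6 was higher by 1.23 (SE 0.20, 2.34-fold, limma adjusted p = 5.08e-05). Otx2, which the front of the head needs in order to form, gave 1313, 1856 and 2491 on male olfactory arrays against 604, 760 and 1712 on male respiratory arrays. The overlap came from male respiratory 1, the only respiratory array to reach the olfactory range. Otx2 was higher by 1.14 (SE 0.24, 2.20-fold, limma adjusted p = 0.00102) and higher in all 5 male pairs. Its second probe set, above background on 7 of 20 arrays, gave a difference of -0.08 (limma adjusted p = 0.921).

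Pbx3, a partner of Meis and Hox proteins, gave 2003, 3133 and 4683 on male olfactory arrays against 1152, 1240 and 1698 on male respiratory arrays. The tissues did not overlap, and male respiratory arrays lay close together. The difference was 1.25 (SE 0.19, 2.38-fold, limma adjusted p = 2.87e-05). The other Pbx genes, Pbx2 and Pbx4, did not pass the test.

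Msx2 is known from skull and limb growth. Its signals were 102, 188 and 251 on male olfactory arrays against 8.05, 52.0 and 83.5 on male respiratory arrays. Every olfactory array was above the respiratory ones, but only 3 of 6 respiratory arrays were above background. The difference was 1.70 (SE 0.35, 3.25-fold, limma adjusted p = 0.000711). Further Msx2 probe sets, above background on 10 and 8 of 20 arrays, were not called (0.35 and 0.48, limma adjusted p = 0.604 and 0.420). Msx1, the other Msx gene and a factor of palate and tooth, went the other way: 79.6, 136 and 205 on male olfactory arrays against 213, 276 and 392 on male respiratory arrays, again without overlap. It was lower by 0.93 on the log2 scale (difference -0.93, SE 0.24, limma adjusted p = 0.00531).

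**Figure D2:**
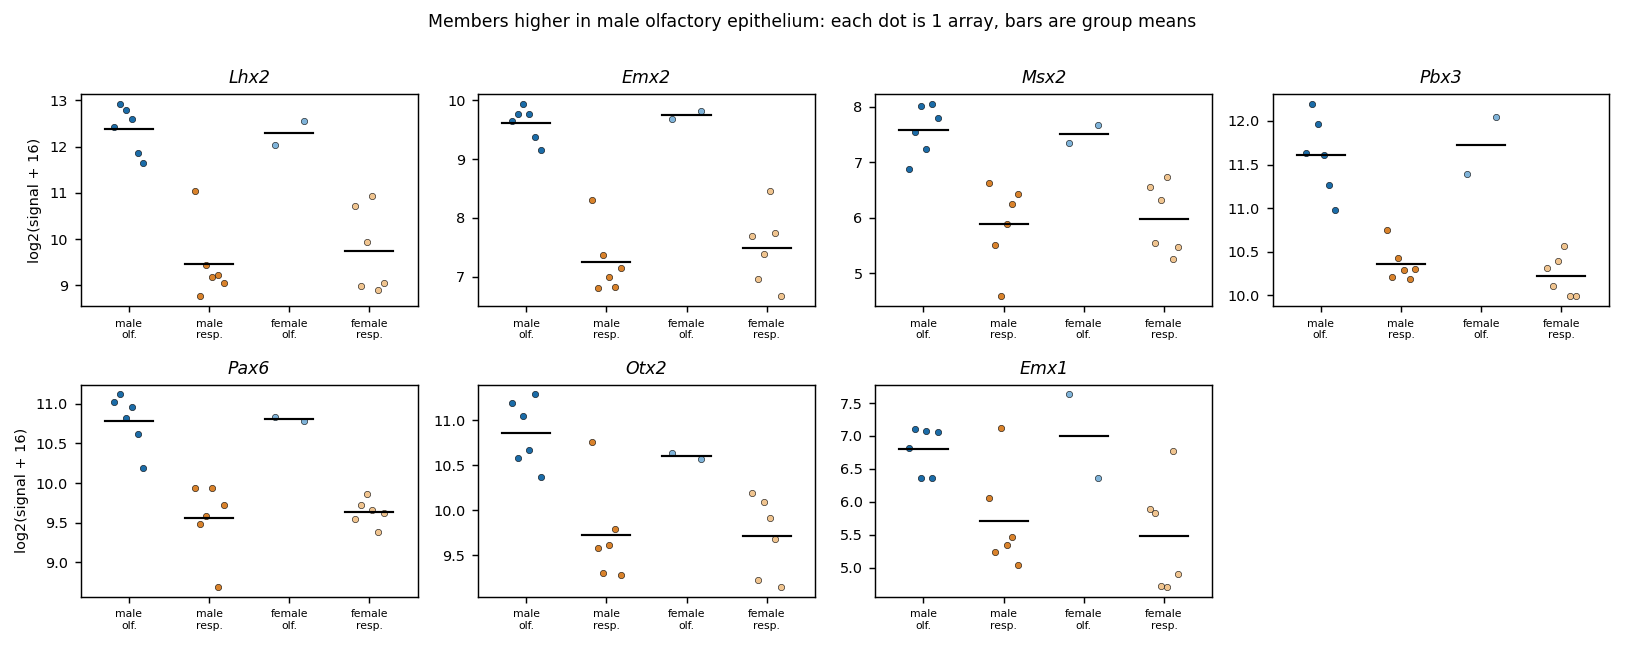
Log2(signal + 16) of the 7 members called higher in male olfactory epithelium, 1 panel a gene, with a dot for each array and a bar for each group's mean. Groups run, in males and then in females, olfactory then respiratory; the tissues do not overlap in males for Lhx2, Emx2, Msx2, Pbx3 and Pax6.

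Of the 95 members, 5 (5.26%) were higher on every male olfactory array than on any male respiratory array, beside 7.54% of all genes. Lower on every olfactory array were 11 of 95 members (11.6%), beside 10.2% of all genes, and 10 of these were called, Dlx5 being the exception. On some respiratory arrays the neuron marker sum and rising members were high together, and on others they were not. Male respiratory 1, with the highest neuron marker sum of its group (13112), also had the highest Lhx2 (2084), Emx2 (302) and Otx2 (1712). It was also the highest male respiratory array for Pbx3 (1698), Msx2 (83.5) and, narrowly, Pax6 (966, beside 964 on male respiratory 4). Among female respiratory arrays, number 7, with a sum of 27205, had the highest Lhx2 (1939), Emx2 (335), Pbx3 (1494) and Msx2 (90.6). Number 3, with a sum of 16184, had the next highest Lhx2 (1659). Emx1 was highest on male respiratory 3 (124), the male array with the lowest sum (3361), and was 10.1 on female respiratory 7. Otx2 was highest on female respiratory 3 (1157) and Pax6 on female respiratory 6 (912). The part of neuron content in these differences was not tested.

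Of the members lower in olfactory epithelium, Irx3 differed most, and 3 of the 5 Iroquois genes were called. Irx3 gave 78.8, 191 and 544 on male olfactory arrays against 1074, 1706 and 2888 on male respiratory arrays. Every olfactory array lay below every respiratory one, and the brightest olfactory array was male olfactory 10. The log2 difference was -3.14 (SE 0.34, 8.79-fold lower, limma adjusted p = 2.77e-07), and it was -4.19 to -2.47 within the 5 male pairs.

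Irx2 was not above background on any male olfactory array (3.77, 13.1 and 18.5) and was above it on all 6 male respiratory arrays (86.4, 125 and 142). The respiratory arrays were therefore at least 2.31-fold brighter, with measured log2 means of 4.79 in male olfactory and 7.08 in male respiratory epithelium (limma adjusted p = 2.03e-05). Irx1 gave 6.07, 45.7 and 63.0 on male olfactory arrays against 124, 192 and 259 on male respiratory arrays, with no overlap. Its difference was -1.93 (SE 0.43, 3.81-fold lower, limma adjusted p = 0.00173). A second Irx1 probe set, above background on 1 of 20 arrays, gave 0.67 (limma adjusted p = 0.154).

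Irx5, which lies next to Irx3 on chromosome 19 in RefSeq, was not called by its brightest probe set: the difference was -0.64 (limma adjusted p = 0.148). Its other probe set, named here after its values were seen, was above background on 0 male olfactory arrays (4.59, 11.4 and 25.3) and on all 6 male respiratory arrays (147, 212 and 262). By that probe set respiratory epithelium was at least 3.69-fold brighter, with measured log2 means of 4.87 in male olfactory and 7.76 in male respiratory epithelium (limma adjusted p = 1.25e-07). On chromosome 1, where Irx2 lies between Irx4 and Irx1, Irx4 gave 7.82, 41.1 and 61.6 on male olfactory arrays against 36.9, 46.0 and 62.2 on male respiratory arrays. The lowest olfactory arrays lay below all respiratory ones, the others overlapped, and Irx4 did not pass the test (-0.42, limma adjusted p = 0.380).

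The 3 Meis genes encode partners of Pbx and Hox proteins. Meis2 gave 154, 541 and 1297 on male olfactory arrays against 873, 2432 and 3053 on male respiratory arrays. The overlap came from male olfactory 2, the brightest olfactory array, and male respiratory 7, the dimmest respiratory one. The difference was -2.03 (SE 0.37, 4.09-fold lower, limma adjusted p = 0.000191). Meis1 gave 756, 940 and 1230 on male olfactory arrays against 1866, 3103 and 4361 on male respiratory arrays, without overlap, and differed by -1.68 (SE 0.28, 3.21-fold lower, limma adjusted p = 7.59e-05). Meis3 was above background on all 20 arrays and did not pass the test, with a difference of 0.38.

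Of the 30 forkhead genes, 8 fell in male olfactory epithelium, 0 rose and 22 were not called, beside 17.8% lower and 14.0% higher of all genes. Their differences ran from -2.24 to 0.78. Foxa1, which opens chromatin in airway and other epithelia, gave 4.60, 41.9 and 61.6 on male olfactory arrays against 127, 161 and 353 on male respiratory arrays. The tissues did not overlap, and male respiratory 7 stood above the rest. The difference was -1.98 (SE 0.36, 3.94-fold lower, limma adjusted p = 0.000216). Foxa3, its relative in gut and mucus-making cells, overlapped between the tissues, with 26.1 as the median of male olfactory and 97.6 as the median of male respiratory arrays. It differed by -1.26 (limma adjusted p = 0.0098). Foxa2, the remaining gene of that subfamily on the array, was above background on 4 of 20 arrays.

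Foxe1, known from thyroid and palate, gave 4.24, 11.1 and 90.4 on male olfactory arrays against 90.2, 142 and 241 on male respiratory arrays. A single olfactory array, male olfactory 3, touched the respiratory range and was the only one above background. The difference was -2.24 (SE 0.43, 4.71-fold lower, limma adjusted p = 0.000416). Foxq1, found in mucous and hair epithelia, was tighter, with 121, 142 and 214 on male olfactory arrays against 388, 431 and 599 on male respiratory arrays. The groups stood well apart, and Foxq1 differed by -1.51 (SE 0.21, 2.85-fold lower, limma adjusted p = 7.13e-06). Foxc1, a mesenchymal factor of skull and eye that lies near Foxq1 on chromosome 17, gave 18.2, 127 and 148 on male olfactory arrays against 185, 201 and 283 on male respiratory arrays. It did not overlap either and differed by -1.13 (SE 0.33, limma adjusted p = 0.0124), and a second Foxc1 probe set gave -1.49 (limma adjusted p = 0.000394).

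Foxn2 gave 328, 462 and 485 on male olfactory arrays against 584, 1115 and 1383 on male respiratory arrays. The groups did not overlap, and the difference was -1.26 (SE 0.19, 2.39-fold lower, limma adjusted p = 2.02e-05). Foxp2, a repressor of brain and lung epithelium, gave 8.70, 33.9 and 64.9 on male olfactory arrays against 84.2, 111 and 151 on male respiratory arrays. It too stood apart, by -1.38 (SE 0.30, 2.60-fold lower, limma adjusted p = 0.00117). Foxn3, a checkpoint factor, differed least of the called members (-0.70, limma adjusted p = 0.00885), and its call was lost with the animal as a fixed block (-0.60, adjusted p = 0.0829). Further Foxn3 probe sets gave -0.98 and -1.18 (limma adjusted p = 0.0072 and 0.0359). Another, above background on 3 of 20 arrays, gave -0.23 (limma adjusted p = 0.730).

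**Figure D3:**
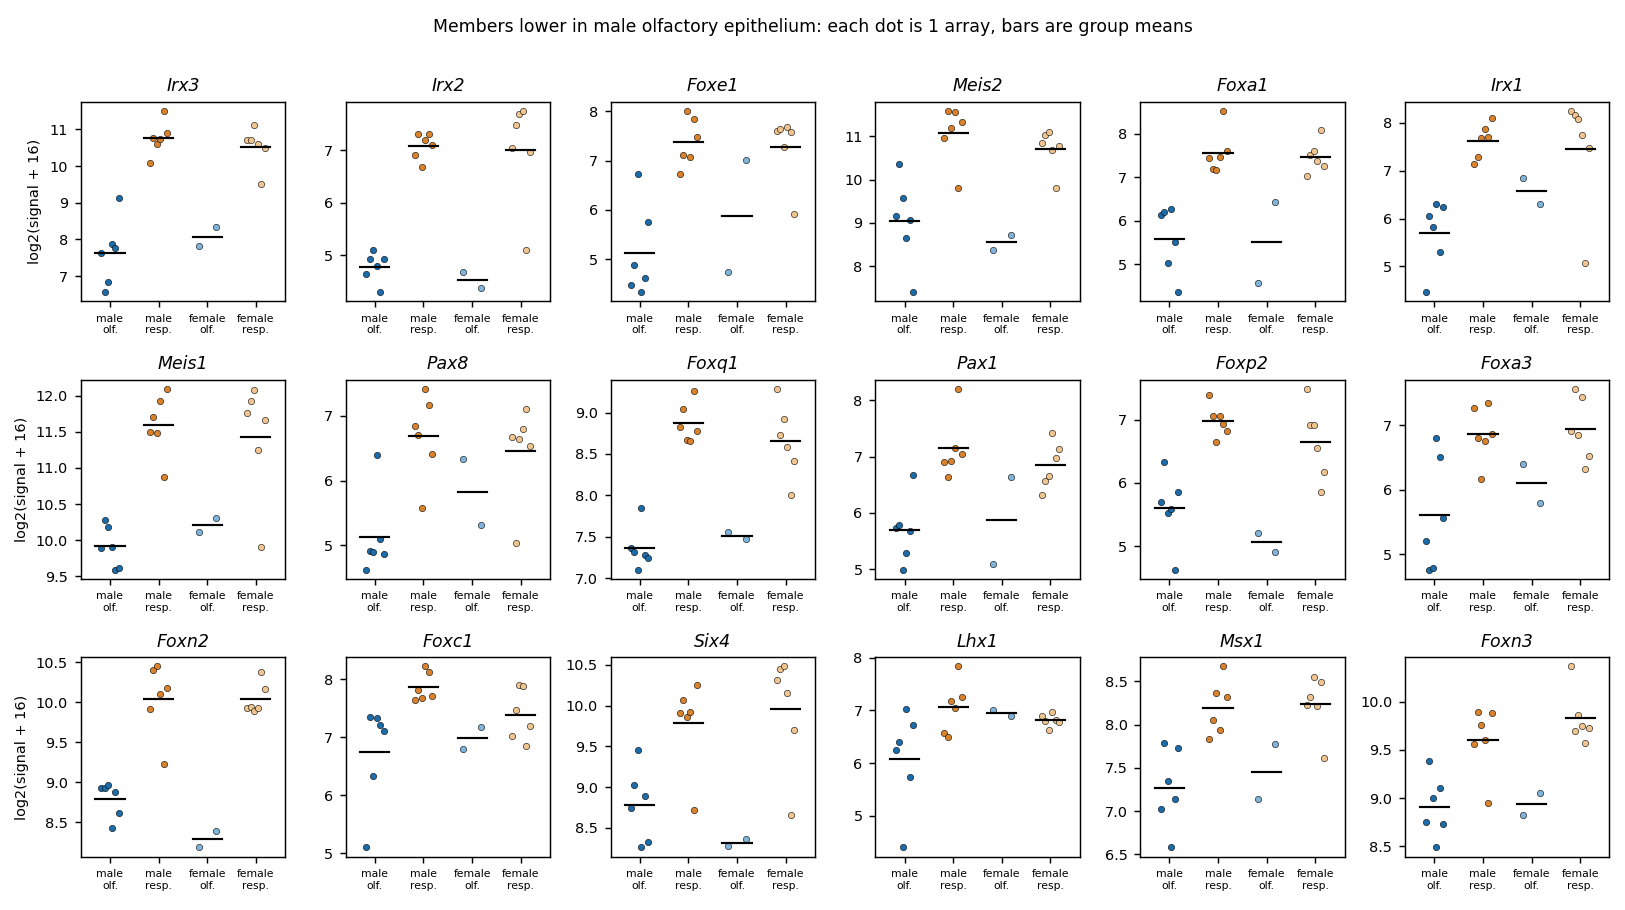
Log2(signal + 16) of the 18 members called lower in male olfactory epithelium, 1 panel a gene, with a dot for each array and a bar for each group's mean, males before females and olfactory before respiratory. Irx3 and Irx2 show the widest gaps between the tissues, and in females Lhx1 shows none.

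Pax8, a factor of thyroid and kidney, gave 8.67, 14.1 and 67.9 on male olfactory arrays against 31.6, 93.3 and 155 on male respiratory arrays. Only male olfactory 4 entered the respiratory range. Pax8 differed by -1.55 (SE 0.38, 2.93-fold lower, limma adjusted p = 0.00337), while a second probe set gave 0.45 (limma adjusted p = 0.467). Pax1, known from the vertebral column and pharyngeal pouches, differed by -1.45 (SE 0.33, limma adjusted p = 0.00197), and its neighbours on chromosome 3, Nkx2-2 and Foxa2, did not pass the test.

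Six4, which acts with Eya cofactors, gave 290, 436 and 684 on male olfactory arrays against 405, 949 and 1208 on male respiratory arrays. The overlap came from male respiratory 7, and the 5 other male respiratory arrays were at 912 or above. Six4 differed by -1.01 (SE 0.29, limma adjusted p = 0.0132), and with the animal as a fixed block by -0.82 (adjusted p = 0.0902). Lhx1, a LIM-homeodomain gene of the head organiser and kidney, gave 5.08, 63.9 and 114 on male olfactory arrays against 74.6, 122 and 212 on male respiratory arrays. Its difference of -0.98 (SE 0.34, limma adjusted p = 0.0385) was not called with the animal as a fixed block (-1.07, adjusted p = 0.119), nor on leaving out any of 7 single arrays (adjusted p up to 0.0979, without male olfactory 3). Lhx1 and Foxn3 were named after their values were seen.

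Foxj1, the switch of motile ciliogenesis, is singled out here after its values were seen. It gave 899, 1467 and 2630 on male olfactory arrays against 1214, 2359 and 3560 on male respiratory arrays. The tissues overlapped, and the difference of -0.54 (SE 0.25) did not pass the test (limma adjusted p = 0.127). With the animal as a fixed block the difference was -0.87 (adjusted p = 0.0189), and in the rats of 11 weeks alone -1.12 (adjusted p = 0.000934). Those 3 rats had olfactory signals of 899 to 1303 and respiratory signals of 2208 to 2622. Of 20 motile cilium markers, 1 was higher and 6 were lower in male olfactory epithelium, beside 14.0% higher and 17.8% lower of all genes. Their median difference was -0.09.

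Some members with the highest level of their family were not called in males, Foxo3 and Dlx5 among them. Foxo3, which answers stress and growth signals, gave 1266, 2298 and 3118 on male olfactory arrays against 1552, 2505 and 3037 on male respiratory arrays (-0.21, limma adjusted p = 0.544). Dlx5, a placode and jaw gene, gave 335, 427 and 515 on male olfactory arrays against 521, 585 and 677 on male respiratory arrays. Dlx5 stood apart on every array, yet by a narrow margin, and its difference of -0.46 (SE 0.19) had a limma adjusted p of 0.0756.

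Many members were faint. Background, the level of bacterial control probe sets with no target, was a signal of 28.2 to 64.9 depending on the array. Above it on all 20 arrays were 25 members (26.3%), beside 68.7% of all named genes, and 30 members (31.6%) were above it on 5 or fewer arrays, beside 8.24% of all genes. Hoxc9, Hoxa9 and Foxr1, named after their values were seen, were above background on 0 arrays.

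The Hox genes, which pattern the trunk and limbs, made up much of this. None of the 24 was above background on all 20 arrays, 16 were above it on 5 or fewer, and none was called. Their differences in males ran from -0.83 to 0.92, with a smallest limma adjusted p of 0.0668. Hoxb3, detected most often (16 arrays), had median signals of 68.8 on male olfactory and 111 on male respiratory arrays. The tissues overlapped, with a difference of -0.59 (limma adjusted p = 0.322). Of the 6 Nkx genes, 5 were above background on 5 or fewer arrays, and Nkx2-5, a heart factor, on 8. No Nkx gene was called.

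**Figure D4:**
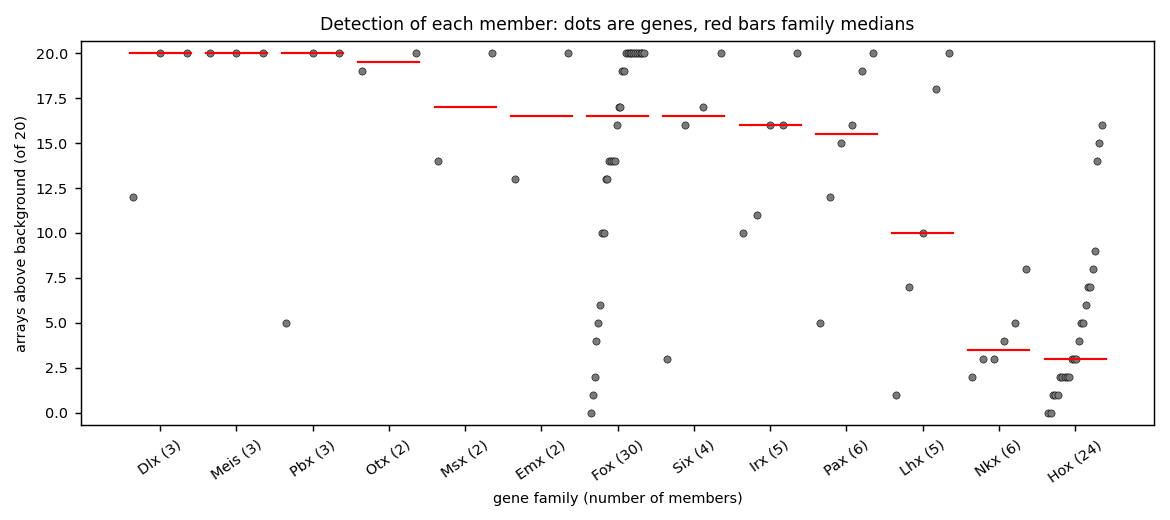
Number of the 20 arrays on which each member was above background (vertical axis), by gene family (horizontal axis), with a dot for each gene and a red bar at the family's median. Hox and Nkx genes cluster at the bottom (medians of 3 and 3.5 arrays), while Dlx, Meis and Pbx genes have medians of 20.

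In females, 17 of the 95 members were called (17.9%, beside 22.5% of all genes), with 2 olfactory and 6 respiratory arrays. Higher in olfactory epithelium were 5 (beside 10.9% of all genes): Lhx2, Emx2, Msx2, Pbx3 and Pax6. Lower were 12 (beside 11.6%): Irx2, Irx3, Meis1, Meis2, Foxa1, Foxn2, Foxn3, Foxp2, Foxq1, Foxi1, Six3 and Six4. Of these 17, 15 were also called in males, in the same direction. With the animal as a fixed block 8 members were called in females, without female olfactory 6 there were 6, and without female olfactory 8 there were 10.

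Lhx2 gave 4161 and 5995 on the 2 female olfactory arrays against 459, 740 and 1939 on female respiratory arrays. The tissues did not overlap, and the difference was 2.54 (SE 0.54, limma adjusted p = 0.00198). Emx2 gave 810 and 886 on female olfactory arrays against 85.3, 171 and 335 on female respiratory arrays, again apart, with a difference of 2.27 (SE 0.40, limma adjusted p = 0.000366). Pbx3 differed by 1.49, Msx2 by 1.53 and Pax6 by 1.17, with limma adjusted p-values of 0.000513, 0.0333 and 0.00505.

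Irx3 gave 209 and 308 on female olfactory arrays against 711, 1590 and 2198 on female respiratory arrays, a difference of -2.44 (SE 0.47, limma adjusted p = 0.000969). Foxn2 gave 275 and 319 on female olfactory arrays against 931, 965 and 1319 on female respiratory arrays, and differed by -1.75 (SE 0.26, limma adjusted p = 7.73e-05). Neither gene overlapped between the tissues. Irx2, Six3 and Foxp2 were not above background on either female olfactory array, so respiratory epithelium was at least 1.99-fold, 1.98-fold and 1.55-fold brighter. Their measured log2 means in female olfactory and female respiratory epithelium were 4.53 and 7.00 for Irx2, 5.14 and 6.99 for Six3, and 5.06 and 6.65 for Foxp2, with limma adjusted p-values of 0.00103, 0.0318 and 0.0106.

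Six3 and Foxi1 were called in females and not in males, and are named after their values were seen. Six3, a forebrain and eye factor, differed in males by -1.12 (limma adjusted p = 0.0543) and was lower in olfactory epithelium in all 5 male pairs and both female pairs. In 1 of these pairs the signals were nearly equal, at 142.6 on male olfactory 1 and 143.0 on male respiratory 1. With the animal as a fixed block Six3 was called in males (-1.25, adjusted p = 0.0487) and not in females (-2.14, adjusted p = 0.0640), and with the animal as a random block it was called in both (adjusted p = 0.0469 and 0.0279). Foxi1, the factor of ion-transporting ionocytes, differed by -1.06 in females (SE 0.37, limma adjusted p = 0.0486) and by -0.50 in males (limma adjusted p = 0.174). Its female call ended on leaving out any of 15 single arrays (adjusted p up to 0.231, without female olfactory 6), and with the animal as a fixed block (-0.70, adjusted p = 0.367). The difference between the sexes was not called for either gene.

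Of the 25 male calls, the 7 that rose had a positive difference in females too, and 17 of the 18 that fell a negative one. The exception was Lhx1, with 103 and 113 on female olfactory arrays against 82.4, 95.4 and 110 on female respiratory arrays, a difference of 0.14 (limma adjusted p = 0.881). Within animals, 6 of the 7 rising members were higher in olfactory epithelium in all 5 male pairs and 6 in both female pairs. Of the 18 falling members, 15 were lower in all 5 male pairs and 14 in both female pairs.

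**Figure D5:**
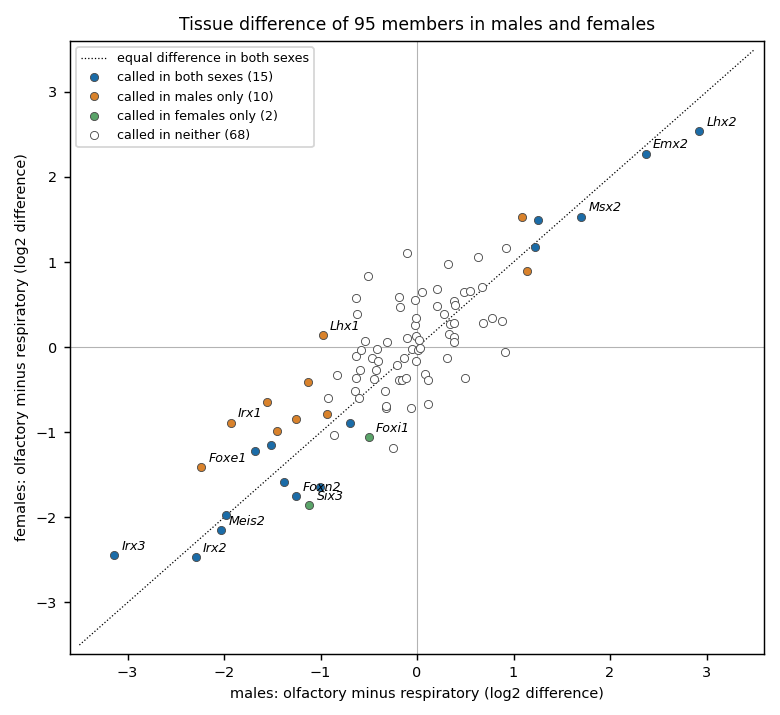
Log2 difference, olfactory minus respiratory, of the 95 members in males (horizontal axis) and in females (vertical axis), each from its own arrays, with the dotted line at equal differences. The 15 members called in both sexes have the same sign in both, from Irx3 at -3.14 and -2.44 to Lhx2 at 2.92 and 2.54.

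The sexes were then set against each other within each tissue. Male minus female, 0 of 95 members were called by limma in olfactory epithelium (beside 0.0211% of all genes) and 0 in respiratory epithelium (beside 0.0141%). An unadjusted p under 0.05 was reached by 1 member in olfactory epithelium (Six6) and 2 in respiratory epithelium (Foxi2 and Meis3), all named after their values were seen. The largest absolute differences were 1.08 and 0.98 on the log2 scale, with smallest adjusted p-values of 0.901 and 1.00. The tissue difference itself was tested between the sexes, and 0 members were called (beside 0% of all genes). An unadjusted p under 0.05 was reached by 3 members there, Six6, Irx5 and Hoxb7, and the smallest adjusted p was 0.924. The 2 female olfactory arrays limit the precision of both comparisons that use them.

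For 8 of the 25 male calls there were 12 further probe sets, of which 8 had the same sign, 5 were called in that direction and 0 were called in the opposite one. Of the uncalled members, 4 had a called second probe set, named after the values were seen: Irx5 as above, Foxj2 (0.62, limma adjusted p = 0.0158), Foxm1 (1.04, limma adjusted p = 0.0483) and Foxp1 (-0.63, limma adjusted p = 0.0432). For Foxm1 the brightest probe set had the opposite sign (-0.65).

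Other regulators that act with these factors were counted by lists, to be read beside the 14.0% higher and 17.8% lower of all genes. Of 25 measured factors of the olfactory neuron lineage, 18 were higher and 1 was lower in male olfactory epithelium, with a median difference of 1.24. Uncx, another homeobox gene, differed by 3.57, Atf5 by 2.88 and Ebf1 by 2.60. Of 23 airway epithelial factors, 3 were higher and 14 lower, with a median of -0.97, with Tfap2a at -2.97 and Ehf at -2.81. Grhl3 was above background on 0 male olfactory and 6 male respiratory arrays and at least 5.48-fold brighter in respiratory epithelium, with measured log2 means of 4.72 in male olfactory and 8.33 in male respiratory epithelium (limma adjusted p = 9.7e-08).

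Of 23 genes whose products partner or resemble LIM, TALE and Six4-type factors, 6 were higher and 6 lower in males (median -0.12). Eya2, a cofactor of Six4 and its relatives, fell by 2.48 on the log2 scale, with median signals of 566 in male olfactory and 3180 in male respiratory epithelium, while Pknox2, a relative of Meis, and Ssbp2, which binds Ldb proteins, rose by 1.81 and 1.62. Of 13 ciliogenesis factors, 4 were higher and 5 lower (median -0.48), led by Deup1 (-3.06), Gmnc (-2.21) and Ccno (-1.94). Of 50 homeobox genes outside the 13 families, 10 were higher and 9 lower (median -0.06), with Hopx at -2.79 and Tshz2 at 2.49 beside Uncx. Such counts, the partners' 6 of 23 each way among them, come from short lists and were not tested against the shares of all genes.

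Cell type markers were counted the same way, beside 17.8% lower and 14.0% higher of all genes, and their part in the members' differences was not tested. Lower in male olfactory epithelium were 8 of 11 airway basal cell markers, 8 of 14 secretory markers and 5 of 10 squamous markers, and 0 of each were higher. Also lower were 2 of 8 ionocyte markers and 2 of 15 muscle markers, counts too small to set against the share of all genes. Of markers of underlying tissue, 11 of 24 for connective tissue and bone, 15 of 17 for leukocytes and 7 of 13 for endothelium were lower, and Cldn5, an endothelial junction gene, was higher (2.03). The summed connective tissue signal was 34089 to 57167 on male olfactory and 59646 to 96495 on male respiratory arrays, and the basal cell sum was 18008 to 31537 on male olfactory and 38483 to 97876 on male respiratory arrays. Higher in male olfactory epithelium were 9 of 10 mature and 13 of 15 immature neuron markers and 6 of 9 sustentacular markers, and 0 of these were lower. Of 10 glia markers 5 were higher and 2 lower, namely the myelin genes Mbp (-1.86) and Prx (-1.29). Cldn5, Mbp and Prx were named after their values were seen.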

How the data were processed

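Signals of 31099 probe sets on 20 rat arrays were analysed. The unit is intensity, a linear signal that the authors deposited for each probe set; it was made with GCOS 1.0, per the submitters' processing notes, and the sources used here do not give its algorithm. Its trimmed mean (2% at each end) was near 500 on every array. The number of arrays limits the precision.

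Leaving out 57 controls, 31042 probe sets were tested on log2(signal + 16) with limma 3.58.1 in R 4.3.3: a mean for each of the 4 groups, empirical Bayes with trend, two-sided p-values with Benjamini-Hochberg adjustment across all of them, calls under 0.05. Background was each array's 95th percentile of 27 bacterial control probe sets. Of the tested sets, 20826 had 1 symbol, 436 several and 9780 none. Changes are log2 differences of group means, and SE is that of the fit. Where all arrays of a group were at or under background, a bound is given. The script was tested on simulated data.

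Named are the 15 members per direction with the largest called change in males, the brightest member of each family, and the 3 genes of each list with the largest change; others are named as chosen after their values were seen. Members and lists were chosen with earlier results of these data known.

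Arrays of 1 animal were paired by the labels; their deviations correlated by -0.184 to 0.246 (consensus 0.0386). The main model has no animal term. Alternatives were pseudocounts 1 and 64, quantile normalization, a filter on dim probe sets, no trend, the mean of all probe sets, the animal as block, RNA integrity or age as covariate, and arrays left out. Within a group each array is from a separate rat, so p-values measure the spread between arrays of different rats, dissection and array included. The main model treats the arrays of the 7 rats that gave both tissues as independent. No genome build is tied to the array; RefSeq's GRCr8 served for promoters and neighbours.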

Additional observations from a re-analysis of the deposited data

Results flagged for a closer look

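In 20 of 96 groups of 6 arrays tested over 32 named members, a single array stood outside the others by Dixon's ratio (its gap to the nearest array over the group's whole range, critical value 0.625). Chance flags about 1 in 20 such groups, or 4.8 of 96. Male respiratory 7 accounts for 7 of the 20 and female respiratory 8 for 3, and these are the arrays that lie apart on the second principal component; male respiratory 1, with the most neuron marker signal among male respiratory arrays, accounts for 3. The part of these features in the flagged values was not tested.

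On male respiratory 1, Lhx2 was at 2084 against 418 to 682 on the other arrays of its group (ratio 0.699), Emx2 at 302 against 96.2 to 149 (ratio 0.631) and Otx2 at 1712 against 604 to 872 (ratio 0.650). On male respiratory 7, Foxa1 was high, at 353 against 127 to 178 (ratio 0.676), as was Pax1, at 279 against 83.4 to 127 (ratio 0.666). On the same array Pax6 was low, at 398 against 701 to 966 (ratio 0.636), and so were Meis2, at 873 against 1983 to 3053 (ratio 0.654), and Six4, at 405 against 912 to 1208 (ratio 0.740). Foxn3 was low there too, at 478 against 737 to 935 (ratio 0.644), and Hoxb3, at 16.6 against 91.2 to 139 (ratio 0.763).

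On female respiratory 8, Irx2 was at 18.5 against 108 to 198 (ratio 0.701), Irx1 at 17.4 against 162 to 289 (ratio 0.758) and Meis2 at 874 against 1633 to 2162 (ratio 0.689). On female respiratory 9, Foxe1 was at 44.6 against 138 to 190 (ratio 0.765) and Msx1 at 181 against 282 to 359 (ratio 0.644). Pax8 was high on male olfactory 4 (67.9 against 8.67 to 18.3, ratio 0.730) and low on female respiratory 4 (16.7 against 76.8 to 121, ratio 0.727). Foxq1 was high on male olfactory 4 (214 against 121 to 149, ratio 0.643), Foxn3 on female respiratory 3 (1303 against 742 to 916, ratio 0.628) and Nkx2-5 on male respiratory 3 (100.5 against 7.12 to 25.8, ratio 0.634).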

How the results depend on the processing

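In males, 25 members were called, 7 higher and 18 lower; adjusted for the RNA integrity number there were 10, with 4 higher and 6 lower. In females 17 were called, 12 of them lower; with that adjustment there were 7, with 3 lower, and with the animal as a fixed replicate block 8, with 4 lower. In males the random block kept all 25 calls and the fixed block 21 of the 25. The fixed block ended those of Emx1, Foxn3, Lhx1 and Six4, and in females it ended 9 of 17. Adjusted for the RNA integrity number, the uncalled differences in males changed sign for Foxo3 (0.16) and Nkx2-5 (-0.43). The cause was not tested. Leaving out 1 array at a time gave 23 to 28 calls in males (6 to 8 higher, 17 to 21 lower), 6 to 21 in females (3 to 6 higher, 3 to 15 lower), and 0 for the sexes and for the difference between them. Of the 25 male calls 23 were kept whichever single array was left out, the exceptions being Lhx1 and Emx1; of the 17 female calls 6 were. Of the 25 male calls, age as a factor, the filter on dim probe sets, no trend and a pseudocount of 64 kept all, quantile normalization and leaving out the 2 respiratory arrays that lie apart 24 each, a pseudocount of 1 kept 23, the mean of all probe sets 22 and the rats of 11 weeks 19. The calls lost with the mean of all probe sets were those of Irx1, Otx2 and Pax8. Members at or under background have only bounds.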

Other observations

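Foxj1 signals differed by the age of the males within olfactory epithelium. They were 899 to 1303 in the 3 rats of 11 weeks, 2171 in the rat of 13 weeks, and 1630 and 2630 in the 2 rats of 14 weeks, so the ages did not overlap between 11 weeks and later. In male respiratory epithelium they were 2208 to 2622 at 11 weeks (n = 3), 1954 at 13 weeks (n = 1), and 1214 and 3560 at 14 weeks (n = 2), with no such order. In female respiratory epithelium they were 1282 at 11 weeks (n = 1), 2225 to 2297 at 13 weeks (n = 3), and 1764 and 2113 at 14 weeks (n = 2). There the rat of 11 weeks was the lowest. The split in male olfactory epithelium was seen after the values were known and was not tested.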
